A study of Mus musculus with 3 samples.

Results

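The 6 genes Cd27, Tnfrsf9, Tnfrsf4, Tnfrsf18, Cd28 and Icos encode costimulatory receptors, surface proteins that add a second signal to lymphocyte activation. They were taken by symbol from the feature lists of the data, and all 6 were found among the 25906 genes measured. The rule used no measured value, but the set was proposed with earlier results of these data known. Natural killer (NK) cells, innate lymphocytes that kill tumor cells, had been sorted as live NK1.1+NKp46+ cells and sequenced in 3 droplet libraries. All mice were wild-type females aged 9 weeks. The naive library came from mice given no tumor cells. The 6 h and 14 days libraries came from mice taken 6 h and 14 days after PyMT cells, a mammary tumor line that seeds the lung, had been injected into a vein. Each library held lung and blood cells, told apart by hashtag antibodies. Following the order in which the design names tissues and tags, lung was taken as the tissue of B0304 and blood as that of B0306.

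Of the receptors, CD27, 4-1BB (Tnfrsf9), OX40 (Tnfrsf4) and GITR (Tnfrsf18) belong to the TNF receptor family. They bind trimeric ligands on other cells, recruit TRAF adaptor proteins and activate NF-kB. CD28 and ICOS are immunoglobulin-type receptors that bind CD80 and CD86 or ICOS ligand, and both recruit PI3 kinase. All were first studied in T cells, where CD28 acts on resting cells and 4-1BB, OX40 and ICOS are induced by activation. In mouse NK cells CD27 is best known as a maturation marker, since cells lose it as they gain the integrin CD11b (Itgam), and 4-1BB marks activated NK cells.

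Lung and blood cells numbered 3676 and 4367 in the naive library, 4680 and 2746 at 6 h, and 3575 and 2069 at 14 days. A group held between 16936897 and 35922737 UMIs (molecules counted once by their tag), with medians of 5910 to 7524 per cell. All 7 NK markers checked were found in each group, with a summed level of 15147 to 22230 CPM (counts divided by the total of the group and scaled to a common total, the unit of all levels given). Among them Ncr1, the gene of a marker used for sorting, had 896, 920 and 665 CPM in naive, 6 h and 14 days lung. In blood Ncr1 was higher in each library, at 1533, 1526 and 1384 CPM. Prf1 had 790 CPM in 14 days lung and 1220 to 1380 CPM in the other groups. Of the 12 T cell markers, with a summed level of 479.5 to 582 CPM, Trbc1 and Trbc2 held the most, Cd3d lay between 6.31 and 16.0 CPM and Cd3g between 10.1 and 25.4, both highest at 14 days, while Cd4, Cd8a, Cd8b1 and Cd5 lay between 0 and 0.367 CPM. From 6 to 16 cell barcodes were shared by a pair of libraries. With 1 library per time point, time point and library cannot be told apart, and no test between time points could be made. Lung and blood cells of a time point came from the same library. Per the methods, lungs were minced and digested with collagenase before sorting, and blood was not. Tissue and tissue handling therefore cannot be told apart in any lung over blood ratio. The 3 lung and blood pairs come from 3 different conditions and were not tested as replicates. The sources used here tie no cell to a mouse. All intervals are 95% intervals that cover counting error only, so a fold whose interval leaves out 1 may still lie within the variation between mice. Those of levels and ratios also leave out the spread of counts between cells.

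Tnfrsf9 (ENSMUSG00000028965) lies on the plus strand of chromosome 4 from 150914562 to 150946102 of GRCm38, and Camta1, at 57.3 to 76.7 CPM, overlaps it on the minus strand. Whether counting used strand is not given in the sources used here, and whether reads of such pairs were told apart was not checked. Its 2 promoters in RefSeq (GRCm38.p6) are shown with that of Tnfrsf18, because among the 5 receptors with 10 CPM or more Tnfrsf9 had the highest ratio to naive at 6 h and Tnfrsf18 at 14 days. Each runs from 250 bases before to 50 bases after a transcript start and is written 5′ to 3′ on the plus strand. Capitals mark matches on either strand to the NF-kB consensus, to the AP-1 motif TGANTCA, to the T-box motif GGTGTGA or to the RUNX motif TGTGGT.
Tnfrsf9, upstream start, chr4:150919905-150920204: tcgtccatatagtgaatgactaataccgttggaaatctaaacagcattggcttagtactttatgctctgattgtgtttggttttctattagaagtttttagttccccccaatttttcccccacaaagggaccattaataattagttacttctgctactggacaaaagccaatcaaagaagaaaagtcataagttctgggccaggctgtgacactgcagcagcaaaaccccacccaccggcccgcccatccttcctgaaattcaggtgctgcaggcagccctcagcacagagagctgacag
Tnfrsf9, downstream start, chr4:150927749-150928048: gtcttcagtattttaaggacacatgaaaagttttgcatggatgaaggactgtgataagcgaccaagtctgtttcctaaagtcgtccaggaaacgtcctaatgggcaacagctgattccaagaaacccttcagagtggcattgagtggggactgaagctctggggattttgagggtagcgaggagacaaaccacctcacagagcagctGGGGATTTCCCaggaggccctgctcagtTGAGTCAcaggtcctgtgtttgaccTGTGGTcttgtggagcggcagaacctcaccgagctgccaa
Tnfrsf18, chr4:156026072-156026371: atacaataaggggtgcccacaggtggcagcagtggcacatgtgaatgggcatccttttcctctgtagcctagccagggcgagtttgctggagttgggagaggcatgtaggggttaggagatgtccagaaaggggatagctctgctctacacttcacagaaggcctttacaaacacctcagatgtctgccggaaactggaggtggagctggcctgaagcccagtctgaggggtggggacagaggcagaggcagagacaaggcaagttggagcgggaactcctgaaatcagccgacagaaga
The downstream Tnfrsf9 promoter held 2 overlapping NF-kB matches, 1 AP-1 match and 1 RUNX match. The upstream one and the promoters of Tnfrsf18, Tnfrsf4 and Cd27 held none of these letters. Of 32851 promoters of the same length, 5.81% held an NF-kB match, 7.81% an AP-1, 3.98% a T-box and 16.8% a RUNX match. Promoters of 4 of the 6 genes were matched, and those of Cd28 and Icos were not used here. A match describes the letters only.

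Tnfrsf9 RNA was higher in lung than in blood at each time point and higher at 6 h than in naive mice in both tissues. In lung it stood at 236 (95% CI 230 to 242) CPM in naive mice, 328 (95% CI 322 to 334) at 6 h and 183 (95% CI 178 to 188) at 14 days. In blood it stood at 131 (95% CI 127 to 135), 189 (95% CI 183 to 195) and 125 (95% CI 120 to 130) CPM. The highest group was 6 h lung and the lowest were naive and 14 days blood, whose intervals overlapped, as did those of 6 h blood and 14 days lung. At 6 h the level was 1.39-fold (95% CI 1.34 to 1.43) that of naive lung and 1.45-fold (95% CI 1.38 to 1.51) that of naive blood. These log2 ratios of 0.47 and 0.53 ranked 82nd of 8007 and 35th of 8114 genes from the highest. At 14 days lung cells stood at a log2 ratio of -0.37 (95% CI -0.42 to -0.31) against naive, which is -0.18 once the median over all genes is taken off. In blood that ratio was -0.07 (95% CI -0.14 to 0.01), and it turned positive when the median over all genes was taken off. Lung exceeded blood 1.80-fold (95% CI 1.73 to 1.88) in naive mice, 1.73-fold (95% CI 1.67 to 1.80) at 6 h and 1.46-fold (95% CI 1.39 to 1.54) at 14 days.

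Cd27 (ENSMUSG00000030336, chromosome 6 from 125232622 to 125237010, minus strand, overlapped on the plus strand by Vamp1 at 16.8 to 22.8 CPM) varied least among the 5 expressed receptors. Lung cells had 54.4 (95% CI 51.5 to 57.5) CPM in naive mice, 66.1 (95% CI 63.5 to 68.8) at 6 h and 54.4 (95% CI 51.7 to 57.2) at 14 days. Blood cells had 62.5 (95% CI 59.7 to 65.4), 70.2 (95% CI 66.8 to 73.8) and 47.0 (95% CI 43.8 to 50.4) CPM. Both tissues were thus highest at 6 h, and 14 days blood was the lowest group. Against naive, lung had a log2 ratio of 0.28 (95% CI 0.18 to 0.38) at 6 h, where blood had 0.17 (95% CI 0.07 to 0.27). At 14 days lung had -0.00 (95% CI -0.11 to 0.11), where blood had -0.41 (95% CI -0.53 to -0.29). Lung was below blood in naive mice, at a log2 ratio of -0.20 (95% CI -0.30 to -0.10), and above it at 14 days, at 0.21 (95% CI 0.09 to 0.34). When each cell had been thinned to 3000 UMIs, so that all cells weighed alike, the 14 days ratio was -0.00 and that of naive mice -0.19. At 6 h the ratio was -0.09 (95% CI -0.18 to 0.01) and turned positive with TMM factors, a scaling that sets aside extreme genes. After thinning, the log2 ratio of 6 h over naive was 0.13 in lung, below the interval given above, and 0.18 in blood.

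Tnfrsf18 (ENSMUSG00000041954, chromosome 4 from 156026164 to 156028895, plus strand) was highest at 14 days in both tissues. The level in lung was 60.8 (95% CI 57.7 to 64.0) CPM in naive mice, 69.3 (95% CI 66.6 to 72.0) at 6 h and 104 (95% CI 101 to 108) at 14 days. In blood the level was 74.3 (95% CI 71.3 to 77.5), 80.1 (95% CI 76.4 to 83.9) and 92.8 (95% CI 88.2 to 97.5) CPM. Naive lung was the lowest group and 14 days lung the highest, so the order of the tissues was opposite at the start and at the end. The 14 days level was 1.72-fold (95% CI 1.61 to 1.83) that of naive lung and 1.25-fold (95% CI 1.17 to 1.33) that of naive blood. The lung ratio ranked 230th of 8108 genes from the highest and the blood ratio 387th of 8117. Lung stood below blood in naive mice and at 6 h, at log2 ratios of -0.29 and -0.21, and above it at 14 days, at 0.17 (95% CI 0.08 to 0.26). Whether the lung and blood changes differ was not tested.

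Tnfrsf4 (ENSMUSG00000029075, chromosome 4 from 156013843 to 156016612, plus strand) has its gene end 9551 bases before the start of Tnfrsf18, yet was hardly detected. Its counts in lung were 13, 27 and 24 UMIs in naive, 6 h and 14 days cells, and in blood 19, 23 and 22 UMIs. These correspond to 0.554 to 1.30 CPM, and the intervals of all neighbours in the order of the 6 groups overlapped. Free RNA could have supplied up to 26.2% of the naive lung counts of Tnfrsf4. It was below the minimum of 10 CPM used for folds, and differences between groups were not detectable at this depth, except that the log2 ratio of 14 days over naive blood, 1.04 (95% CI 0.08 to 2.00), left out 0.

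**Figure D1:**
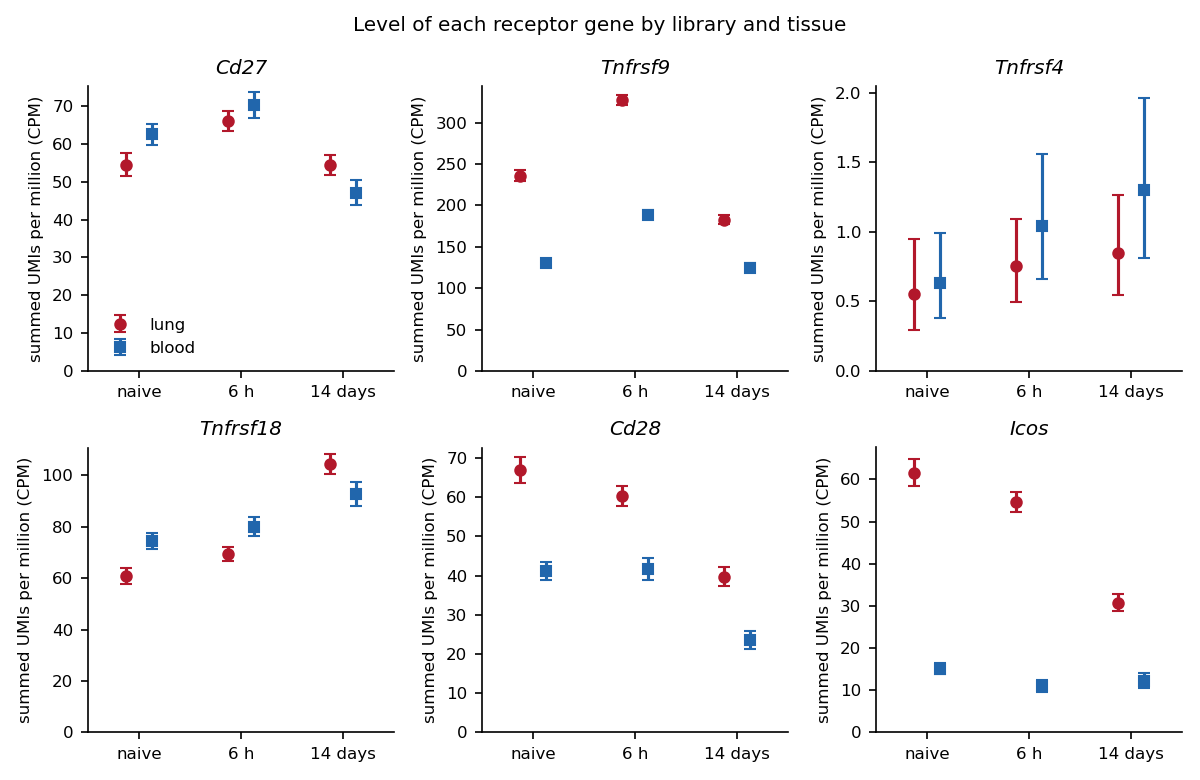
Levels in CPM (summed UMIs scaled to a common total, vertical axis from 0 in each panel) of the 6 receptor genes in lung (red circles) and blood (blue squares) of the 3 libraries, with exact Poisson intervals. Icos, Cd28 and Tnfrsf9 stood higher in lung in each library, Tnfrsf18 was highest at 14 days, and Tnfrsf4 had at most 27 UMIs in a group.

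Cd28 (ENSMUSG00000026012, chromosome 1 from 60716800 to 60773359, plus strand) was higher in lung than in blood and lowest at 14 days in either tissue. Lung cells had 66.8 (95% CI 63.6 to 70.2) CPM in naive mice, 60.2 (95% CI 57.7 to 62.8) at 6 h and 39.7 (95% CI 37.5 to 42.2) at 14 days. Blood cells had 41.2 (95% CI 38.9 to 43.6), 41.6 (95% CI 39.0 to 44.4) and 23.5 (95% CI 21.2 to 25.9) CPM. Naive lung was the highest group, and 14 days lung could not be told from naive or 6 h blood by its interval. At 14 days the level was 1.68-fold (95% CI 1.56 to 1.82) lower than in naive lung and 1.75-fold (95% CI 1.56 to 1.97) lower than in naive blood. With the median over all genes taken off, these log2 ratios were -0.56 and -0.66, and the blood one ranked 8083rd of 8117 genes from the highest. At 6 h Cd28 was near its naive level, with a lung log2 ratio of -0.15 (95% CI -0.24 to -0.05) and a blood one of 0.01 (95% CI -0.11 to 0.14). Lung exceeded blood 1.62-fold (95% CI 1.504 to 1.75) in naive mice, 1.45-fold (95% CI 1.34 to 1.56) at 6 h and 1.69-fold (95% CI 1.51 to 1.90) at 14 days.

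Icos (ENSMUSG00000026009, chromosome 1 from 60977927 to 61000320, plus strand), whose start lies 204567 bases beyond the end of Cd28, had the widest gap between the tissues. In lung it had 61.5 (95% CI 58.4 to 64.8) CPM in naive mice, 54.6 (95% CI 52.2 to 57.0) at 6 h and 30.7 (95% CI 28.7 to 32.8) at 14 days. In blood it had 15.1 (95% CI 13.8 to 16.6), 11.0 (95% CI 9.67 to 12.5) and 12.2 (95% CI 10.6 to 14.0) CPM. Each lung group lay above each blood group, and within blood the intervals of 14 days overlapped those of naive and of 6 h. Lung exceeded blood 4.07-fold (95% CI 3.66 to 4.54) in naive mice, 4.96-fold (95% CI 4.34 to 5.69) at 6 h and 2.51-fold (95% CI 2.16 to 2.94) at 14 days. These ratios ranked 72nd of 8212, 56th of 8173 and 161st of 8103 genes from the highest. In lung the level at 14 days was 2.00-fold (95% CI 1.84 to 2.18) lower than in naive mice, and 7960th of 8108 genes from the highest. In blood the log2 ratio against naive was -0.46 (95% CI -0.69 to -0.23) at 6 h and -0.31 (95% CI -0.55 to -0.07) at 14 days, the latter -0.02 after thinning. Gm37039, which overlaps Icos on the same strand, had at most 1.83 CPM in a group, so Icos counts are uncertain by how reads were split between them.

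**Figure D2:**
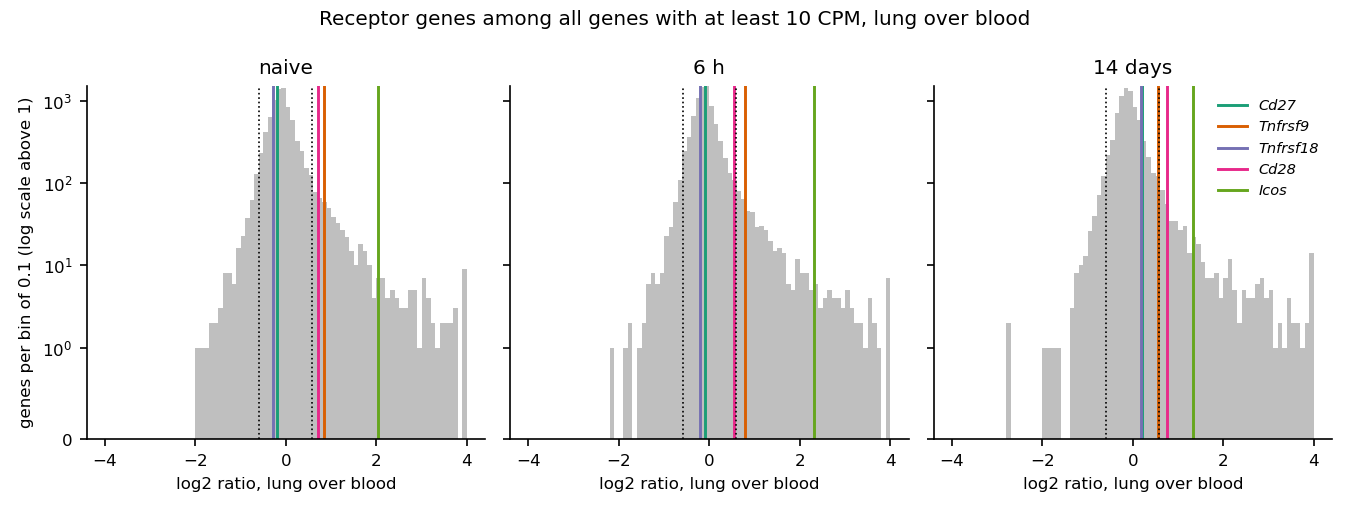
Grey bars count genes with at least 10 CPM by their log2 ratio of lung over blood (horizontal axis, bins of 0.1, values beyond 4 in the end bins, vertical axis logarithmic above 1) in each library, coloured lines mark the 5 expressed receptors, and dotted lines mark 1.5-fold. Icos lay far to the right in each library, at 2.03, 2.31 and 1.33, while Cd27 and Tnfrsf18 lay close to the bulk of genes.

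Receptors past 1.5-fold in either direction were counted beside the share of all genes past it, both among genes whose higher group reached 10 CPM. In lung over blood these were Tnfrsf9, Cd28 and Icos in naive mice (3 of 5, against 10.4% of all genes), Tnfrsf9 and Icos at 6 h (2 of 5, against 9.51%) and Cd28 and Icos at 14 days (2 of 5, against 9.71%). All of these were higher in lung. With the median over all genes taken off or with TMM factors Cd28 was also past 1.5-fold at 6 h and Tnfrsf9 at 14 days, and after thinning Cd28 was not at 14 days (0.51). At 6 h over naive no receptor passed 1.5-fold in lung (0 of 5, against 0.574% of genes) or in blood (0 of 5, against 0.518%). At 14 days over naive Tnfrsf18 was higher and Cd28 and Icos were lower in lung (3 of 5, against 15.5% of genes), and Cd28 was lower in blood (1 of 5, against 3.95%). In lung Cd28 was no longer past 1.5-fold with the median taken off or with TMM factors (both -0.56). Of the 6 receptors, 5 had 10 CPM or more in a group of each comparison. Their median log2 ratio in 14 days over naive lung was -0.37, where that of all genes was -0.19. Both time comparisons of a tissue share the naive group, so their values stand side by side and are not independent.

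**Figure D3:**
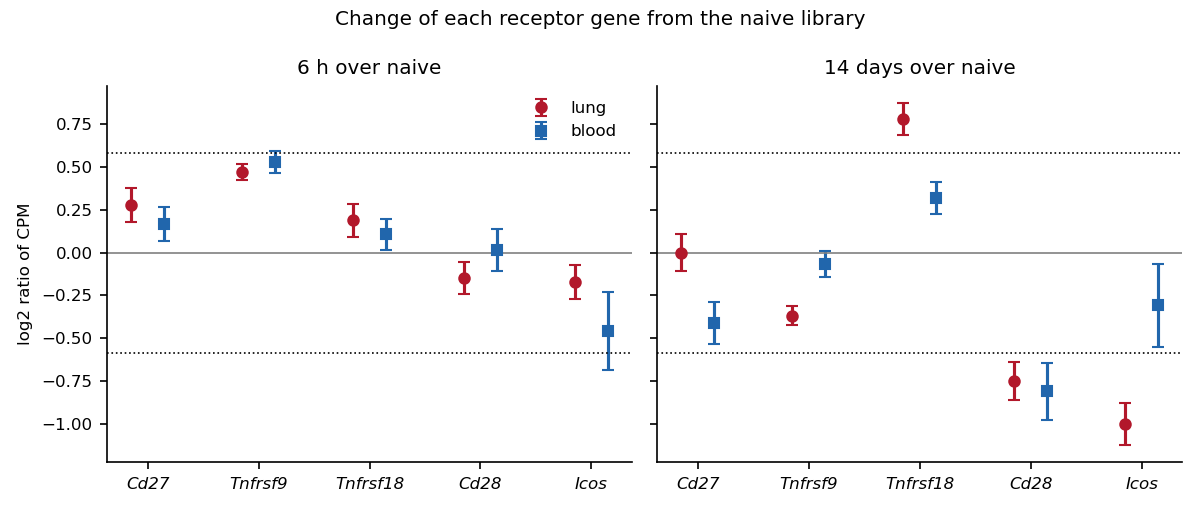
Log2 ratios of 6 h (left) and 14 days (right) over naive for the 5 expressed receptors in lung (red circles) and blood (blue squares), with exact intervals and dotted lines at 1.5-fold. Tnfrsf9 stood at 0.47 and 0.53 at 6 h, and at 14 days Tnfrsf18 lay above 0 and Cd28 below it in both tissues.

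Shares of cells with a UMI were compared after each cell had been thinned to 3000 UMIs, which left out 6 to 86 cells per group. Tnfrsf9 UMIs were found in 33.1%, 44.8% and 26.7% of lung cells in naive, 6 h and 14 days mice, and in 18.2%, 28.1% and 18.0% of blood cells. Icos UMIs were found in 12.9%, 11.3% and 7.63% of lung cells and in 3.84%, 2.57% and 3.93% of blood cells. The gap between tissues in both genes was therefore also one in the number of cells with a UMI. Before thinning, Tnfrsf9 was seen in 28.0% of naive blood to 65.0% of 6 h lung cells, and Icos in 6.74% of 6 h blood to 21.3% of 6 h lung cells. Cd28 was found in 14.4%, 13.4% and 8.54% of thinned lung cells and in 9.48%, 9.50% and 6.35% of blood cells. Tnfrsf18 ranged from 15.7% in naive lung to 25.4% in 14 days lung, Cd27 from 11.5% in 14 days lung to 16.4% in 6 h blood, and Tnfrsf4 from 0.251% to 0.436%. Too few cells of another type (1, 2 and 4 barcodes) were at hand to measure free RNA in cells that lack these genes. From markers of other cell types, free RNA could give at most 2.94% of thinned cells a Tnfrsf9 UMI, at 6 h, and at most 0.333% an Icos UMI.

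Among cells with a UMI of a gene, Tnfrsf9 gave the most UMIs per cell, with means of 1.85 to 2.11 and up to 20 in a thinned cell, against means of 1.10 to 1.39 for Icos. The variance of Tnfrsf9 counts over cells was 2.53 to 3.41 times its mean, while that of Tnfrsf18 was 1.01 to 1.19 times its mean. In naive lung it was 1.65 times the mean for Icos and 1.55 times for Cd27. Tnfrsf9 also had the higher level in each group, and this measure can rise with level. How evenly the RNAs were spread over cells was therefore not compared.

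**Figure D4:**
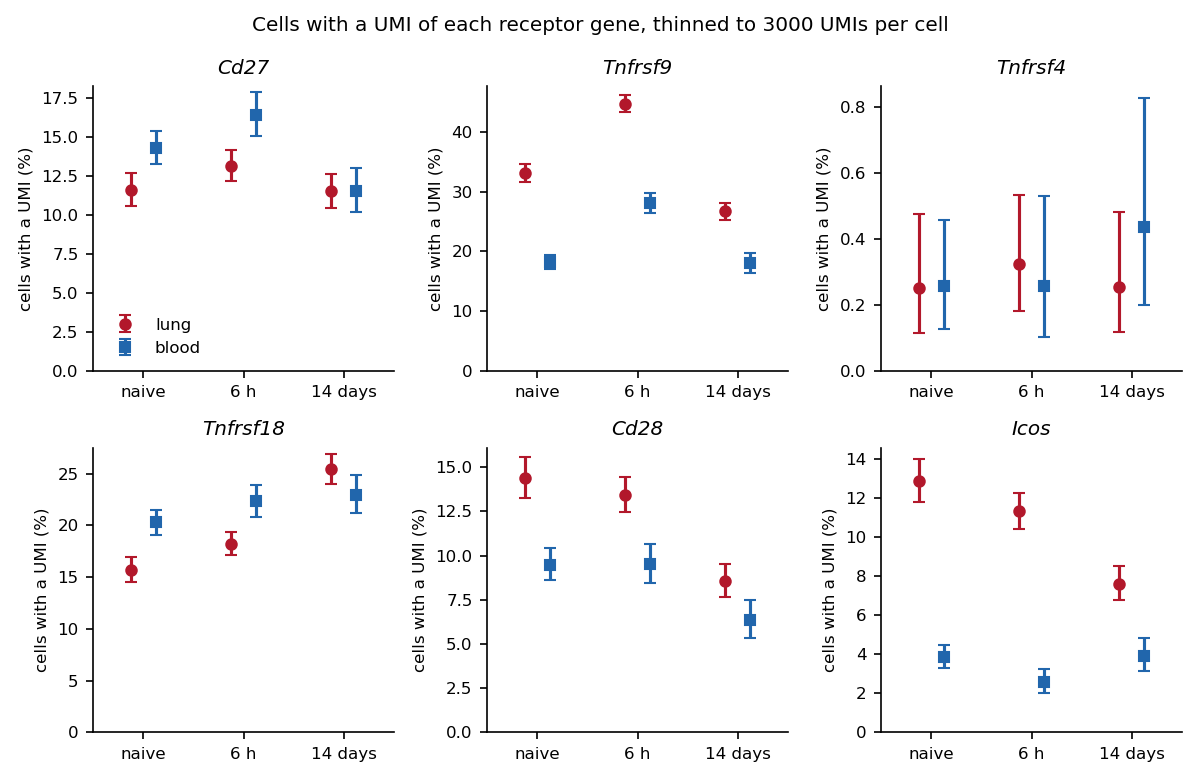
Percent of cells with at least 1 UMI (vertical axis, from 0) of each receptor gene after thinning to 3000 UMIs per cell, in lung (red circles) and blood (blue squares) of the 3 libraries, with exact binomial intervals. Tnfrsf9 reached 44.8% in 6 h lung, and Icos stayed at or below 3.93% in blood.

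Most cells held UMIs of 1 receptor or none after thinning. Cells with no UMI of the 6 genes made up 38.4%, 31.1% and 42.0% of lung and 49.1%, 41.5% and 49.4% of blood cells in naive, 6 h and 14 days mice, and no cell held all 6. Cd28 was more frequent in cells with a Cd27 UMI than in cells without one. In naive lung, Cd28 was found in 24.0% (95% CI 20.01 to 28.4) of cells with a Cd27 UMI and in 13.1% (95% CI 12.0 to 14.4) of cells without one. In naive blood the shares were 16.3% (95% CI 13.5 to 19.5) and 8.34% (95% CI 7.47 to 9.29). The intervals parted in the same direction at 6 h in both tissues and in 14 days lung, and overlapped in 14 days blood, at 8.82% (95% CI 5.54 to 13.2) and 6.03% (95% CI 4.98 to 7.22). Icos was likewise found more often with Cd28, in 18.6% (95% CI 15.3 to 22.2) against 11.9% (95% CI 10.8 to 13.1) of naive lung cells. Tnfrsf9 showed no such link to Cd28 in lung, at 34.2% (95% CI 30.1 to 38.5) against 32.9% (95% CI 31.3 to 34.6) in naive mice, and in 6 h blood it was less frequent in cells with Cd28, at 19.3% (95% CI 14.7 to 24.6) against 29.0% (95% CI 27.2 to 30.9).

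Cells were then split inside each group by genes that are not receptors of the set, on thinned counts. Cd27 was lower in cells with a UMI of Itgam, the gene of CD11b, in each of the 6 groups. In naive lung it had 40.7 (95% CI 35.7 to 46.2) CPM with Itgam and 63.2 (95% CI 56.3 to 70.7) without, and in 14 days blood 33.5 (95% CI 27.3 to 40.5) and 58.1 (95% CI 49.9 to 67.3). Cd28 and Tnfrsf9 were lower in cells with Itgam in all 6 groups as well, Cd28 at log2 ratios of -0.46 to -0.69 and Tnfrsf9 at -0.24 to -0.82. Icos was lower with Itgam in naive (-0.36), 6 h (-0.45) and 14 days (-0.49) lung, and its interval held 0 in naive and 6 h blood. Tnfrsf18 was lower in 6 h lung (-0.34), 6 h blood (-0.29) and 14 days lung (-0.36), and its interval held 0 in naive lung and blood. Cells with an Itgam UMI made up 55.2%, 50% and 38.2% of lung and 61.0%, 52.7% and 50.2% of blood cells in naive, 6 h and 14 days mice. Their share was lowest in 14 days lung, and its part in the receptor levels was not tested.

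Tnfrsf9 was higher in cells with 2 or more UMIs of the immediate early genes Nr4a1, Nr4a3, Egr1 and Egr2, which are induced within an hour of stimulation or stress, in all 6 groups. In blood the level with and without them was 303 (95% CI 266 to 344) and 110 (95% CI 104 to 116) CPM in naive mice, and 479 (95% CI 423 to 540.5) and 163 (95% CI 154 to 172) at 6 h. In lung it was 316 (95% CI 296 to 336) and 193 (95% CI 183 to 203) in naive mice, and 443 (95% CI 420 to 466) and 274 (95% CI 264 to 284) at 6 h. For Cd27, Tnfrsf18, Cd28 and Icos the intervals of the log2 ratio held 0 in all groups but 14 days lung, where Icos was higher in such cells (0.58) and Tnfrsf18 lower (-0.34). The summed level of these 4 genes was itself higher in lung, at 416, 379 and 269 CPM in naive, 6 h and 14 days cells against 155, 139 and 81.4 in blood. Among cells with no UMI of them, the log2 ratio of lung over blood for Tnfrsf9 was 0.85 in naive mice, 0.79 at 6 h and 0.38 at 14 days, where all thinned cells had 0.90, 0.77 and 0.497. For Icos it was 2.03, 2.39 and 0.83, where all thinned cells had 2.03, 2.37 and 1.09. The log2 ratio of Tnfrsf9 at 6 h over naive in such cells was 0.53 in lung and 0.59 in blood.

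UMIs of Itga1 or Pmepa1, genes that TGF-beta is known to induce, were found in 34.6% of 14 days lung cells, against 4.59% to 10.2% in the other groups. In 14 days lung, cells with a UMI of either gene had 61.8 (95% CI 54.0 to 70.4) CPM of Cd27 and those with neither had 37.2 (95% CI 32.8 to 42.0). The corresponding levels of Cd28 were 47.9 (95% CI 41.1 to 55.6) and 29.7 (95% CI 25.8 to 34.0). Those of Tnfrsf18 were 119 (95% CI 108 to 131) and 96.1 (95% CI 89.0 to 104). Icos was higher too (log2 ratio 0.34, 95% CI 0.01 to 0.67), and for Tnfrsf9 (0.13) the interval held 0. Icos was also higher in such cells of 6 h lung (0.50), 6 h blood (1.39) and 14 days blood (1.42). Its interval held 0 in naive lung and blood. Tnfrsf18 was also higher in 6 h blood (0.53), and its interval held 0 in the remaining groups. Tnfrsf9 was lower in such cells of naive blood (-0.41) and 14 days blood (-1.74). For Cd28 the interval held 0 in all groups but 14 days lung. Cd27 was also higher in such cells of naive lung (0.46, 95% CI 0.05 to 0.84) and 14 days blood (1.28). Its interval held 0 in naive blood and at 6 h. Over all thinned cells, the variance was 1.35 times the mean for Icos in 14 days lung. For Cd27 in naive lung it was 1.55 times the mean, and neither interval covers such spread. Among cells without Itga1 and Pmepa1 UMIs, 14 days over naive lung gave log2 ratios of -0.41 for Cd27, -1.03 for Cd28, -1.05 for Icos and 0.67 for Tnfrsf18. Over all thinned cells these ratios were -0.15, -0.77, -0.96 and 0.80, so Cd27 and Cd28 stood further below naive in the cells without Itga1 and Pmepa1. Lung over blood for Cd27 at 14 days was -0.16 in them and -0.00 in all thinned cells.

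Cells with 2 or more UMIs of the ILC1 list (Cxcr6, Tmem176a, Tmem176b, Il7r and Cd200r1, markers of a related innate lymphocyte) were 1.73%, 1.92% and 3.14% of lung and 1.118%, 1.61% and 3.93% of blood cells. In all 6 groups they had more Cd28 and Icos than the remaining cells. Cd27 was higher in them in naive lung (log2 ratio 1.32), naive blood (1.78), 6 h lung (1.31) and 14 days lung (1.12). In 6 h blood (0.35) its interval held 0. Icos in naive lung stood at 204 (95% CI 145 to 280.4) CPM in these 62 cells and at 56.9 (95% CI 52.4 to 61.6) in the rest, and Cd28 at 199 (95% CI 140.1 to 274) and 59.1 (95% CI 54.6 to 64.0). In 14 days lung Tnfrsf18 had 222 (95% CI 174 to 279) CPM in the ILC1-list cells and 100.2 (95% CI 94.2 to 107) in the rest. It was also higher in such cells of 6 h lung (log2 ratio 0.95, 95% CI 0.42 to 1.43). In naive lung, naive blood and 6 h blood the Tnfrsf18 interval held 0. Tnfrsf9 was lower in such cells of 14 days blood, at 16.5 (95% CI 4.485 to 42.1) CPM in 81 cells and 121 (95% CI 112 to 130) in the rest, and of 6 h blood, at 45.5 (95% CI 16.7 to 98.9) and 187 (95% CI 177 to 196). In naive blood (log2 ratio -0.56, 95% CI -1.51 to 0.25) and in the 3 lung groups the interval held 0. Without these cells the log2 ratios of 14 days over naive lung were 0.71 for Tnfrsf18, -0.72 for Cd28 and -1.06 for Icos. Cells with 2 or more UMIs of Cd3d, Cd3e and Cd3g numbered 30 to 58 per group and held more Cd27 in each group, at log2 ratios of 1.18 to 2.05. They also held more Cd28 in naive blood (2.08), 6 h lung (1.29), 6 h blood (2.59) and 14 days lung (1.39). In naive lung (1.00, 95% CI -0.01 to 1.85) the Cd28 interval held 0. Tnfrsf18 was higher in such cells of 6 h (1.29) and 14 days (0.79) lung, and Icos in 14 days lung (1.64). The intervals of both held 0 in naive lung, naive blood and 6 h blood.

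**Figure D5:**
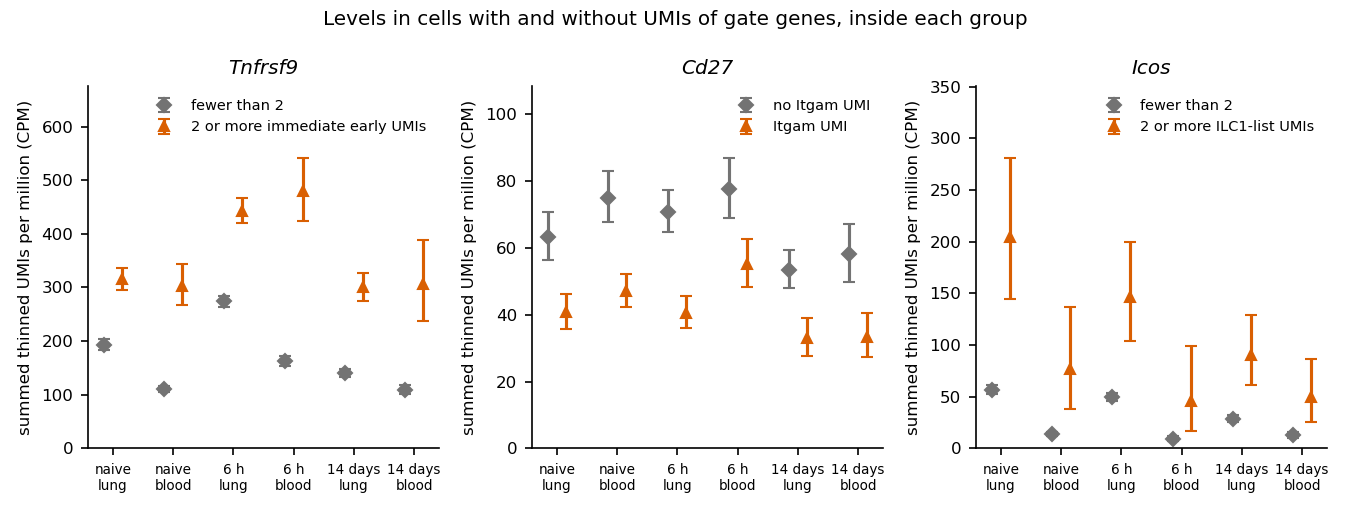
Levels in CPM of summed thinned UMIs (vertical axis from 0) of Tnfrsf9, Cd27 and Icos inside each of the 6 groups, in cells with (orange triangles) and without (grey diamonds) UMIs of immediate early genes, Itgam or the ILC1 list, with exact Poisson intervals. Tnfrsf9 was higher with immediate early UMIs, Cd27 lower with Itgam and Icos higher with the ILC1 list in each group.

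The RNAs of the ligands (Cd70, Tnfsf9, Tnfsf4, Tnfsf18, Cd80, Cd86 and Icosl) were scarce, with 0 of 7 reaching 10 CPM in any group. Tnfsf4, the ligand of OX40, came nearest, at 7.46, 6.01 and 6.99 CPM in naive, 6 h and 14 days lung and 1.30, 2.26 and 1.30 in blood. Of the CD28 family inhibitors Ctla4, Pdcd1 and Btla, Ctla4 reached 13.6 CPM in 14 days lung, against 1.59 to 4.59 in the other groups. Ctla4 lies between Cd28 and Icos and competes with CD28 for its ligands. It was higher in 14 days than naive lung (log2 ratio 1.73, 95% CI 1.41 to 2.07), where both neighbours were lower. In lung over blood at 14 days it was higher too (3.09), and there both neighbours were also higher.

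Of 13 TRAF and NF-kB genes, which signal below the TNF receptors, 2, Traf1 (0.61) and Nfkb2 (0.74), were past 1.5-fold upward at 6 h in lung, against 0.574% of all genes in either direction. In blood 1, Nfkb2 (0.59), was, against 0.518%, and none was past it downward. The median log2 ratio of the list at 6 h was 0.16 in lung and 0.11 in blood, where all genes had -0.07 and -0.06. In lung over blood, Birc2, Birc3 and Relb, which encode inhibitors of apoptosis at the receptor complex and an NF-kB subunit, were higher in each library, Birc3 at 0.81, 0.91 and 0.81. Traf5 was lower in naive and 6 h lung, at -0.75 and -0.71. In 14 days over naive, 0 of 13 passed 1.5-fold in lung, against 15.5% of all genes, or in blood, against 3.95%.

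Among genes of CD28 signalling, Pik3r1, a regulatory subunit of PI3 kinase, was higher in naive lung than blood, at a log2 ratio of 1.123. Pik3cd and Vav1 were lower, at -0.69 and -0.71, so the genes named moved both ways. At 14 days over naive lung Pik3r1 was lower, at -1.07, as Cd28 and Icos were, and 0 of 9 genes of the list passed 1.5-fold in blood. Of 12 other TNF receptors 3 or 4 reached 10 CPM, and Tnfrsf1b was higher in lung in each library, at 1.15, 0.99 and 1.03. Tnfrsf26 was higher in 14 days than naive lung (0.72) and lower in 6 h lung than blood (-0.70).

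Markers of other cells also moved with the groups. The 12 T cell markers had a summed level of at most 501 CPM in naive and 6 h groups and of 573 and 582 in 14 days lung and blood, with Cd3d and Cd3g past 1.5-fold in both tissues. Trac was also past 1.5-fold upward in 14 days over naive lung and in lung over blood at 14 days. Cd3d was past it upward in 6 h over naive lung as well. The 5 ILC1 markers had 25.9 to 37.1 CPM in naive and 6 h groups and 70.3 and 70.2 in 14 days lung and blood. The 4 markers of ILC2, another innate lymphocyte, together had 3.96, 3.23 and 3.16 CPM in naive, 6 h and 14 days lung. In blood they had 0.267, 0.498 and 0.531 CPM. None of the 4 reached 10 CPM, and their part in the receptor levels was not tested. Without the cells that held 2 or more Cd3d, Cd3e and Cd3g UMIs, all 42 log2 ratios of the receptors stayed within their intervals. Lyz2, a myeloid gene, had 0.600 CPM in naive blood and 44.9 and 89.3 in 6 h and 14 days blood, and 3.37, 26.1 and 13.4 in the lung groups, while Csf1r and Adgre1 stayed at or below 1.59 CPM. S100a9, another myeloid gene, moved the other way from Lyz2 in blood, past 1.5-fold lower than naive at 6 h and 14 days. The 7 myeloid markers together had 15.8 to 94.5 CPM, and their part in the receptor levels was not tested. The summed level of the 4 hemoglobin genes was 89.0 CPM in 14 days lung and 0 to 0.362 elsewhere. Without the cells that held hemoglobin, Cdh5, Cldn5 or C1qa UMIs, the log2 ratios of 14 days over naive lung were 0.78 for Tnfrsf18, -0.75 for Cd28 and -0.997 for Icos.

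The genes whose levels were most like each receptor over the 6 groups were found by Pearson r of log2(CPM + 1) among 8424 genes, as a description. They were Slamf6 (0.99), Immp2l (0.97) and Focad (0.97) for Cd27, and Rrad (0.99), Tbl3 (0.98) and Dus4l (0.98) for Tnfrsf9. For Tnfrsf18 they were Ctsb (1.00), Smpd5 (0.99) and Ankrd39 (0.99). For Cd28 they were Socs6 (0.99), Sidt1 (0.99) and Lyst (0.99), and for Icos Rell1 (1.00), 5330406M23Rik (1.00) and Rnf125 (1.00). Rnf125 shared the wide gap between tissues seen for Icos, at 191, 164 and 86.8 CPM in lung and 43.2, 34.7 and 34.7 in blood. The 6 groups share 3 libraries, and with 8424 genes high values of r arise easily. Between the receptors themselves r was highest for Tnfrsf9 with Cd28 (0.82), Cd28 with Icos (0.80) and Tnfrsf9 with Icos (0.80), and lowest for Tnfrsf18 with Cd28 (-0.76).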

How the data were processed

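Per the labels and methods, the authors aligned 10x 3′ v3.1 reads with Cell Ranger 7.0.1 to GRCm38.p6 (GENCODE M23). The file header names Cell Ranger 7.1.0. Whether intronic or antisense reads were counted is not given in the sources used here. What the authors deposited are raw UMI counts of genes and hashtags for all barcodes. Positions come from GENCODE M21, which held 25461 of the 25906 gene IDs.

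Barcodes with 800 to 5000 genes and at most 6% mitochondrial counts were kept (8385, 7584 and 5785 in the naive, 6 h and 14 days libraries). A tissue needed 90% of tag counts, and 342, 158 and 141 barcodes had none. No doublet caller was run. Cells with both tags were left out, and doublets within a tissue stayed in. Counts were summed per group and divided by the group total (CPM), with exact Poisson intervals. Intervals of ratios are exact given the sum of both counts, and those of shares are exact binomial. An upper bound on free RNA, 3.02%, 3.96% and 0.729% of counts, came from other cell types' markers and their levels in barcodes with 1 to 100 UMIs. Splits used 1 or more UMIs (Itgam, Itga1 and Pmepa1) or 2 or more (other lists).

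The receptors, gene lists, motifs and alternatives were chosen with earlier results of these data known. Named genes were all 6 receptors, up to 4 genes per pathway list and comparison past 1.5-fold, the 3 genes most like each receptor, split genes and markers that moved. Some genes of these lists are not reported here. The interval of ratios was tested on simulated Poisson counts only. That test cannot tell how it covers counts that vary more than this between cells. Tools were Python 3.11.15, numpy 2.4.6, scipy 1.17.1, pandas 2.3.3, matplotlib 3.10.9, and edgeR 4.0.16 in R 4.3.3 for TMM factors.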

Additional observations from a re-analysis of the deposited data

Results flagged for a closer look

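For 2 receptors the difference between lung and blood turned its direction between libraries, with intervals that left out 0. The log2 ratio of lung over blood for Cd27 was -0.20 in naive mice and 0.21 at 14 days, but -0.00 at 14 days after thinning to 3000 UMIs per cell. For Tnfrsf18 it was -0.29 in naive mice, -0.21 at 6 h and 0.17 at 14 days. These differences between libraries were not tested, since each group is 1 library.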

How the results depend on the processing

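No paired analysis was possible because the time points compared have 1 library each, which also leaves no replicate to leave out. Lung and blood form 3 pairs, each of another condition, which were not tested as replicates. The share of all genes was computed only at 1.5-fold with a minimum of 10 CPM and plain CPM. Recounts of receptors under other settings therefore have no such share beside them. With 2-fold in place of 1.5-fold, 1 receptor (Icos) was past the fold in place of 3 in 14 days over naive lung, 1 (Icos) in place of 3 in naive lung over blood, 1 (Icos) in place of 2 in lung over blood at 6 h and at 14 days, and 0 in place of 1 in 14 days over naive blood. With a minimum of 50 CPM the counts became 0 in 14 days over naive blood and 0 in 14 days lung over blood. With no minimum, Tnfrsf4 was added in 4 comparisons, which gave 1 in 6 h over naive blood, 2 (with Cd28) in 14 days over naive blood, 4 in 14 days over naive lung and 3 in lung over blood at 14 days, there as lower in lung. Both with TMM factors and with the median over all genes taken off, 14 days over naive lung lost Cd28 (2 in place of 3), and lung over blood at 6 h gained Cd28 and at 14 days Tnfrsf9 (3 in place of 2 in each). Thinning added Cd28 at 6 h as well. In 6 h over naive blood, where no receptor was past 1.5-fold, 1 (Tnfrsf9) was with the median over all genes taken off, and 1 (Tnfrsf9) after thinning. Lung over blood at 14 days had 1 (Icos) in place of 2 after thinning, since Cd28 fell to 0.51.

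Alternatives chosen after seeing the data kept cells with no UMI of the immediate early genes, which gave 2 (Tnfrsf9 and Icos) in 6 h over naive blood, 1 (Icos) in 14 days lung over blood, and 2 in place of 3 in naive lung over blood, without Cd28. Cells with no UMI of Itga1 and Pmepa1 gave 1 (Icos) in 6 h over naive blood and 1 (Icos) in 14 days lung over blood, and added Cd28 at 6 h (3 in place of 2). Of 672 ratios over all alternatives 596 stayed within the interval of the value given and none past 1.5-fold among receptors with 10 CPM changed sign. Tnfrsf4 turned in 14 days over naive lung (0.62, range -0.34 to 0.97) and in lung over blood at 14 days (-0.61, range -1.12 to 0.09). Signs turned for ratios under 1.5-fold, among them Cd27 in 14 days over naive lung (-0.41 to 0.19) and in lung over blood at 14 days (-0.16 to 0.34), Icos in 14 days over naive blood (-0.45 to 0.02) and Tnfrsf9 there (-0.12 to 0.09). The cause was not tested. TMM factors moved 14 of 42 ratios beyond their interval. Of 360 shares 295 stayed within theirs, and all 65 that did not came from thinning to 2000 UMIs or not thinning. Depth limits Tnfrsf4, with 13 to 27 counts per group, whose interval left out 0 in 14 days over naive blood only.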
